A study of Mus musculus with 26 samples.

Results

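The genes that build a photoreceptor and carry its light response were examined in 26 single mouse retinal amacrine cells, inhibitory interneurons that do not themselves detect light through this cascade. The gene set was written by name and holds 38 genes, of which 35 had a probe set assigned to them alone, among 18193 genes measured. It comprises 5 transcription factors that act early in photoreceptor development, 9 rod genes, 15 genes that serve rods and cones alike, and 9 cone genes. Nr2e3, Gucy2f and Cnga3 were not analysed here. Each cell was hybridised to 1 Affymetrix Mouse 430 2.0 array, and where several probe sets belong to a gene, the brightest by mean log2 signal over the cells was used. Signals of 1000 and above were taken as detection, where the trimmed mean of every array is 500. This level is a working limit and not a detection call of the scanner software.

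The cells came from retinas given a green fluorescent reporter by electroporation at birth, under the Ndrg4 promoter (pNdrg4) or the Synapsin promoter (pSynapsin), and were picked by hand for their fluorescence. All groups therefore share the electroporation and the dissociation with papain, and the design text states that the electroporation was done inside the animal or in explants without saying which for each cell. The cells form 7 groups by age, reporter and stated culture. There was 1 pSynapsin cell labelled E19 and cultured for 4 days, and 2 pNdrg4 cells labelled P4 that had 4 days of culture. The P5 cells were 10 with pNdrg4 whose labels state no culture (cells A1 to B4), 5 pNdrg4 cells kept in culture for 5 days (cells C1 to D6) and 4 pSynapsin cells kept as long (cells E1 to E4). At P8 there were 2 pNdrg4 cells (A1 and A2) and 2 pSynapsin cells (B3 and B4), cultured for 8 days. The E19 label is used as given, although the design text places the electroporation at birth. No strain is given, and no label names an animal or a retina, so a group counts as 1 sample. No p-value was computed, and an SD or a range here describes the spread over cells. Intervals for shares of cells are exact Clopper-Pearson 95% intervals that cover counting error only, and precision is limited by how few arrays there are.

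The labelled cell type was checked against its markers. Pax6, a transcription factor kept by mature amacrine cells, was detected in all 26 cells, and every cell held at least 2 of 7 amacrine markers (median 5, highest 6). The others were Slc32a1 in 22 cells, Tfap2b in 20, Tfap2a in 16, Gad2 and Slc6a9 in 14 each and Gad1 in 11. The number of genes detected per cell ranged from 1909 to 4180. It was 2306 in the E19 cell, 2552 and 3418 in the P4 cells, 1909 to 3513 in the P5 cells with no culture stated (median 2361.5) and between 3049 and 4180 in every P5 or P8 cell with a stated culture.

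In a rod or cone, light changes the visual pigment, the pigment activates the G protein transducin, and transducin releases the phosphodiesterase PDE6 from its inhibitory subunit. PDE6 lowers cyclic GMP and a cyclic-GMP-gated channel closes. Arrestin and a pigment kinase end the response, and guanylate cyclase with its calcium-sensing activators restores it. Rods and cones use paralogous sets of these proteins. The homeobox factors Otx2 and Crx start the photoreceptor programme and are also used in bipolar cells, Nrl directs precursors to the rod fate, and Crx and Nrl bind the promoters of many phototransduction genes.

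The stretch just before the start of the members is shown for 4 genes because it carries the letters that Crx and Otx2 recognise. The RefSeq promoter table (GRCm38.p6) holds 29 of the 38 members, and for each gene the 250 bases before the start of its top entry were searched on both strands for TAATCC, the core of the Crx and Otx2 site, and TGCTGA, the core of the Nrl element. The motifs were searched separately and do not overlap in the windows shown. TAATCC was found before 12 of the 29 members (41.4%), against 1725 of 27025 genes (6.38%). TGCTGA was found before 5 of the 29 members (17.2%), against 15.8% of all genes. TAATCC stood before 4 of 6 rod genes, 5 of 12 shared genes, 2 of 5 early factors and 1 of 6 cone genes. The windows below are on the gene's strand, 5′ to 3′, with the motifs in capitals (GGATTA is TAATCC on the other strand). They are Crx itself (chr7:15879956-15880205, minus strand), the rod arrestin gene Sag (chr1:87803430-87803679, plus strand), the rod channel gene Cngb1 (chr8:95306586-95306835, minus strand) and the rod transducin gene Gngt1 (chr6:3993758-3994007, plus strand), all in GRCm38.p6.
Crx: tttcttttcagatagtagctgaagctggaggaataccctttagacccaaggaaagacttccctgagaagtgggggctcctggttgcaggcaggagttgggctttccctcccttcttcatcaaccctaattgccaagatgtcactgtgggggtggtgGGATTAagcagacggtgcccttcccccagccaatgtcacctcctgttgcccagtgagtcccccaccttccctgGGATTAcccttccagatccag
Sag: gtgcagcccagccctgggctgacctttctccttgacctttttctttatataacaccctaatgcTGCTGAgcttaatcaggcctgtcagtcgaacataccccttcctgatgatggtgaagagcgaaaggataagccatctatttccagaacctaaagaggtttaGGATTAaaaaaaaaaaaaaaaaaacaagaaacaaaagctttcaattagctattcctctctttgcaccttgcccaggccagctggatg
Cngb1: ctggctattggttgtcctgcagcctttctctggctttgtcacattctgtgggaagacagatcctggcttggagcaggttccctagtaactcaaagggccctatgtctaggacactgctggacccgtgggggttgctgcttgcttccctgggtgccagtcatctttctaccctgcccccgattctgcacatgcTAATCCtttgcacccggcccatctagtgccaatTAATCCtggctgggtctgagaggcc
Gngt1: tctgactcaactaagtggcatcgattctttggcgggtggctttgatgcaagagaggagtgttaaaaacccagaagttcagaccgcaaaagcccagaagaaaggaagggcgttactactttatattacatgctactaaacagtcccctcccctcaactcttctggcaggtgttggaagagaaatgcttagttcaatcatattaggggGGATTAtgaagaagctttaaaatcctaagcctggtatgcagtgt
The Crx window holds the core 94 and 21 bases before the start, the Cngb1 window 58 and 25 bases before it, the Gngt1 window 44 bases before it and the Sag window 87 bases before it, with TGCTGA in capitals 187 bases before the Sag start. Crx was detected in 14 cells, Sag in 12, Cngb1 in 6 and Gngt1 in none. Rom1, Pdc and Tulp1 were detected in 13, 11 and 11 cells and hold neither motif in this window. A match of letters is a description of the window and was not tied to the signals.

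Over the 26 cells, 22 of the 35 measured members were detected in at least 1 cell, against 55.9% of all measured genes, and 11 were detected in at least 5 cells, against 32.7% of all genes. The members as a set therefore lay near the background of detection: 151 of 910 gene-cell pairs (16.6%) were above the limit, and the share over all genes was 16.6% too. The detections were spread unevenly over the roles. Of the early factors 3 of 4 were detected, of the rod genes 7 of 9, of the shared genes 8 of 14 and of the cone genes 4 of 8, but none of the cone genes reached 5 cells.

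**Figure D1:**
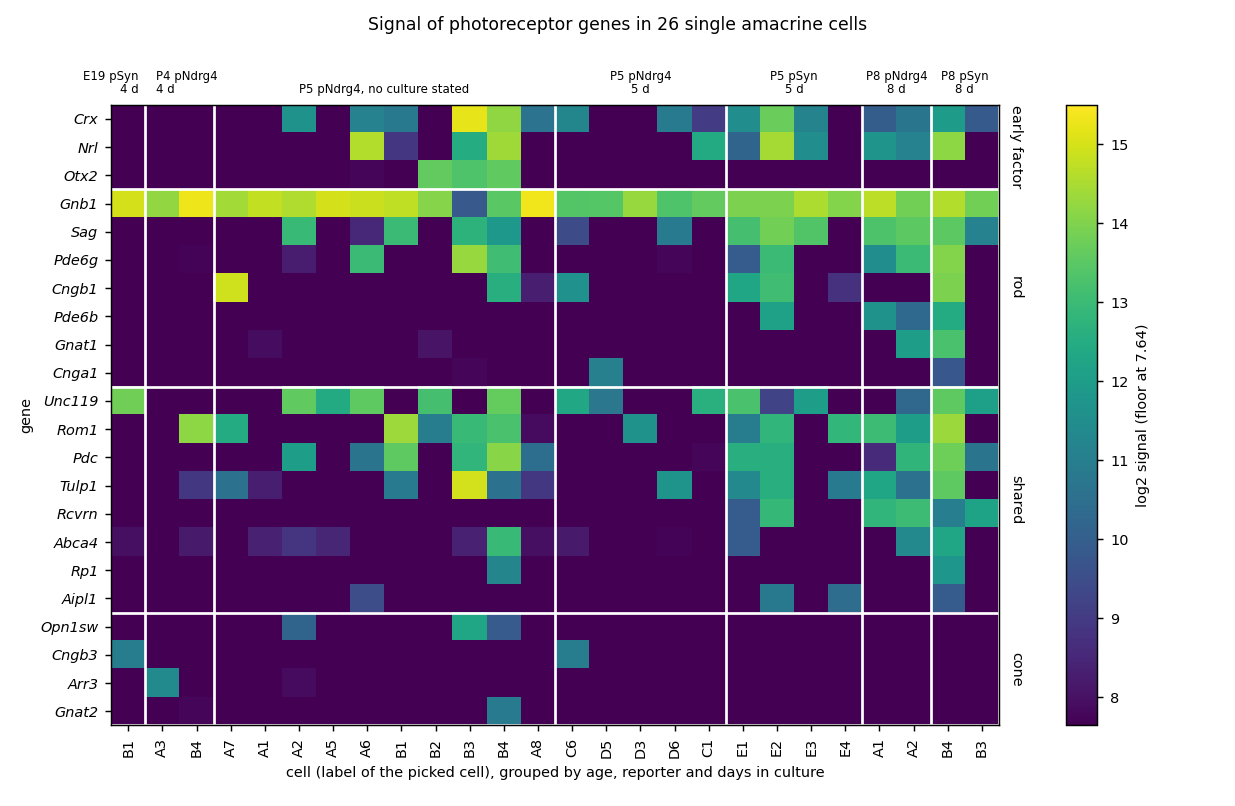
Signal of the 22 members detected in at least 1 cell (rows, grouped by role) in each of the 26 cells (columns, grouped by age, reporter and days in culture), as log2 of the signal raised to a floor of 7.64. Each row is to be read across cells, since probe sets are not on a common scale. Gnb1 is bright in nearly every cell, and the cone rows are almost empty. The other rod genes are bright only in some P5 and P8 cells, and the shared genes mostly there.

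Among the early factors, Crx (Entrez gene 12951) was detected in 14 cells, or 53.8% (interval 33.4 to 73.4%), and in 9 cells at a limit of 2000. In the E19 cell its signal was 44.0 and in the P4 cells 56.3 and 7.47. In the 10 P5 cells without a stated culture it ranged from 4.19 to 37462 with a median of 1702, and 6 of the 10 were above the limit. Crx was thus below the limit in the cells labelled E19 and P4 and split the P5 group. Its signals in the cultured P5 pNdrg4 cells were 2447 in C6, 1.42 in D5, 1.71 in D3, 1918 in D6 and 513 in C1. In the P5 pSynapsin cells they were 2914 in E1, 13380 in E2, 2268 in E3 and 35.1 in E4. At P8 they were 1002 and 1662 in the pNdrg4 cells A1 and A2, and 3974 and 935 in the pSynapsin cells B4 and B3. The P8 cells A1 and B3 lie just inside and just outside the limit. A second Crx probe set was above the limit in 2 cells only.

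Nrl was detected in 10 cells (38.5%, interval 20.2 to 59.4%). It was between 21.0 and 162 in the E19 and P4 cells. In the P5 cells with no culture stated it ranged from 7.15 to 24495 with a median of 173, and the 3 cells above the limit were A6, B4 and B3, the last at 5840. Nrl was therefore high in few cells of that group, and was high in most cells of the P5 pSynapsin group. In the cultured P5 pNdrg4 cells it was 5523 in C1 and between 3.49 and 26.7 in the other cells. In the P5 pSynapsin cells it was 1165 in E1, 22123 in E2, 2898 in E3 and 11.2 in E4. At P8 it was 3353 and 2249 in the pNdrg4 cells, and 18294 and 3.38 in the pSynapsin cells B4 and B3. Both pNdrg4 cells at P8 were above the limit, and the pSynapsin cells lay at opposite ends.

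Otx2, which acts upstream of Crx, was detected in 3 cells, all of them P5 cells with no culture stated. Its signal was 12445 in B2, 10275 in B3 and 12231 in B4, and at most 218 in the other 23 cells. Thrb, the thyroid hormone receptor that acts in cones, stayed at or below 367 in every cell. Crx, Nrl and Otx2 were detected together in the P5 cells B3 and B4, Crx with Nrl in 7 cells, Crx without the other factors in 5, Nrl alone in P5 cell C1 and Otx2 alone in P5 cell B2. In 10 cells, including the E19 cell and both P4 cells, none of the 4 measured factors was above the limit.

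Among the rod genes, Sag, the rod arrestin that ends the response of the light-activated pigment, was detected in 12 cells (46.2%, interval 26.6 to 66.6%). It was 67.2 in the E19 cell, and 21.9 and 23.8 in the P4 cells. In the P5 cells with no culture stated it ranged from 9.44 to 8150 with a median of 233, with 4 of 10 cells above the limit. The P5 pNdrg4 cultured cells read 691 in C6, 8.14 in D5, 90.8 in D3, 1847 in D6 and 22.0 in C1. The P5 pSynapsin cells read 9272 in E1, 14673 in E2, 10465 in E3 and 64.7 in E4, so 3 of these 4 cells lay above every cultured pNdrg4 cell of that age and the last lay among them. At P8 Sag was 10233 and 11775 in the pNdrg4 cells A1 and A2, and 11872 and 2251 in the pSynapsin cells B4 and B3. All 4 cells at P8 were above every cultured pNdrg4 cell at P5.

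Pde6g, the inhibitory subunit of the rod phosphodiesterase, was detected in 7 cells. In the P5 cells with no culture stated it was 8145 in A6, 20019 in B3 and 8664 in B4, with a median of 107 over the 10 cells. It was at most 220 in the cultured P5 pNdrg4 cells and at most 211 in the E19 and P4 cells. The P5 pSynapsin cells read 970 in E1, 8100 in E2, 39.1 in E3 and 5.45 in E4. At P8 it was 2896 in A1, 8170 in A2, 16897 in B4 and 88.7 in B3. Both probe sets of Pde6g were above the limit in 7 cells. Pde6b, a catalytic subunit of the same enzyme, was above the limit in 4 cells. They were P5 pSynapsin cell E2 (4540) and P8 cells A1 (3313), A2 (1299) and B4 (5654). In the 18 cells of the E19, P4 and P5 pNdrg4 groups Pde6b stayed at or below 164. Pde6a, the other catalytic subunit, reached 227 at most.

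Cngb1, the beta subunit of the rod channel, was detected in 6 cells. Its highest signal, 31374, was in P5 cell A7, a cell in which none of the early factors was above the limit. It was 6083 in P5 cell B4, 3122 in C6, 4960 in E1, 8774 in E2 and 15769 in P8 cell B4. Cngb1 was between 9.28 and 433 in the remaining 20 cells, including both P8 pNdrg4 cells. Cnga1, the alpha subunit of that channel, was above the limit only in P5 cell D5 (2159) and read 885 in P8 cell B4. Gnat1, the rod transducin alpha subunit, was above the limit in P8 cells A2 (4278) and B4 (9656) and at most 269 elsewhere. Gngt1, the rod transducin gamma subunit, has 4 probe sets, none of which was above the limit in any cell.

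Gnb1 stands apart from the other rod genes. It encodes the G protein beta subunit that rod transducin shares with receptors in most neurons, and it was detected in 25 of 26 cells (96.2%, interval 80.4 to 99.9%). Its signal was 912.51 in P5 cell B3 and between 10371 and 40881 in the other cells. A second Gnb1 probe set was above the limit in 17 cells and the last in none, and by the median over its probe sets Gnb1 was above it in 16 cells.

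Among the genes that rods and cones share, Unc119, a carrier of lipid-anchored proteins such as transducin alpha, was detected in 14 cells. It was 14370 in the E19 cell and 108 and 114 in the P4 cells. It ranged from 9.08 to 12884 in the P5 cells with no culture stated (median 2888), from 9.47 to 6349 in the cultured P5 pNdrg4 cells (median 1749) and from 17.8 to 9776 in the P5 pSynapsin cells. At P8 it was 8.05 and 1223 in the pNdrg4 cells, and 11952 and 4350 in the pSynapsin cells. High and low cells occurred side by side in every group with more than 2 cells.

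Rom1, a disc membrane protein that pairs with peripherin, was detected in 13 cells (50.0%, interval 29.9 to 70.1%). It was 94.3 in the E19 cell, and 25.3 and 18368 in the P4 cells. In the P5 cells with no culture stated it ranged from 44.6 to 20876 with a median of 1110, and 5 of 10 cells were above the limit. In the cultured P5 pNdrg4 cells only D3 was above it, at 3235, and the others were at most 72.0. The P5 pSynapsin cells read 2000 in E1, 7225 in E2, 52.4 in E3 and 7291 in E4. At P8 Rom1 was 8396 and 4102 in the pNdrg4 cells, and 20230 and 80.1 in the pSynapsin cells B4 and B3. Prph2, the peripherin gene itself, had no signal above 24.3.

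Pdc, phosducin, which binds the beta and gamma subunits of transducin, was detected in 11 cells. It was at most 149 in the E19 and P4 cells. In the P5 cells with no culture stated it ranged from 5.01 to 17700 with a median of 1516, and 6 of 10 cells were above the limit. In the 5 cultured P5 pNdrg4 cells it was at most 213, so that group had no cell above the limit. The P5 pSynapsin cells read 6020 in E1, 6102 in E2, 78.0 in E3 and 14.9 in E4. At P8 Pdc was 381 and 7079 in the pNdrg4 cells, and 13929 and 1608 in the pSynapsin cells.

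Tulp1, a tubby-like protein of photoreceptor trafficking, was detected in 11 cells, and in 6 at a limit of 2000. Its highest signal was 31995 in P5 cell B3, and the next in that group were 1871 in B1, 1542 in B4 and 1525 in A7. In the cultured P5 pNdrg4 cells only D6 was above the limit, at 3383. The P5 pSynapsin cells read 2605 in E1, 6212 in E2, 10.8 in E3 and 1929 in E4. At P8 it was 4987 and 1526 in the pNdrg4 cells, and 11954 and 63.4 in the pSynapsin cells.

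Rcvrn, recoverin, the calcium sensor that restrains the pigment kinase, was divided by age and reporter. It was above the limit in all 4 cells at P8, at 7261 in A1, 8333 in A2, 2061 in B4 and 4717 in B3. At P5 it was above the limit only in pSynapsin cell E2 (7447), with 985 in E1 just below. In the 15 pNdrg4 cells at P5 and the 3 earlier cells it was at most 63.4. The P8 cells therefore did not overlap the P5 pNdrg4 cells, and overlapped the P5 pSynapsin cells through E2. Rcvrn, Pde6b and Gnat1 were each below the limit in all 18 E19, P4 and P5 pNdrg4 cells, whereas Crx was above it in 8 of those 18. Several other members did not share this. In the P5 cells with no culture stated, Pdc was above the limit in 6 cells, as was Crx. Rom1 and Unc119 were above it in 5 each, Sag and Tulp1 in 4, Pde6g and Nrl in 3 and Cngb1 in 2.

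The remaining shared genes were rare. Abca4, the retinoid transporter of the disc rim, was above the limit in P5 cell B4 (8066) and P8 cells B4 (5009) and A2 (2613), and read 983 in P5 cell E1. Rp1, a microtubule protein of the outer segment, was above it in P5 cell B4 (2381) and P8 cell B4 (3467). Aipl1, the chaperone of PDE6, was above it in P5 cells E2 (1820) and E4 (1403) and read 984 in P8 cell B4. The guanylate cyclase gene Gucy2e, its activators Guca1a and Guca1b, the retinol dehydrogenase Rdh12 and the pigment kinase Grk1 were below the limit in every cell, with the highest of their signals at 439 for Guca1a. With Prph2, Thrb, Gngt1, Pde6a, Opn1mw, Pde6c, Pde6h and Gngt2, 13 members were below the limit throughout, and 0 of 26 cells gives an upper bound of 13.2% of cells for each.

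Among the cone genes, only single cells were above the limit. Opn1sw, the short-wavelength opsin, was 4967 in P5 cell B3 and 1146 in P5 cell A2, with 960 in P5 cell B4. Cngb3, the cone channel beta subunit, was 2011 in the E19 cell and 1964 in P5 cell C6. Arr3, the cone arrestin, was 2626 in P4 cell A3, and Gnat2, the cone transducin alpha subunit, was 1846 in P5 cell B4. No P5 pSynapsin cell and no P8 cell had a cone gene above the limit. No cell held more than 1 of them.

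The early factors were detected in 27 of 104 gene-cell pairs (26.0%) and the phototransduction genes in 124 of 806 (15.4%), a gap of 10.6 percentage points. Rod genes were detected in 57 of 234 pairs (24.4%) and cone genes in 6 of 208 (2.88%), a gap of 21.5 points. Gnb1 alone supplied 25 of the 57 rod detections. Without it the rod share was 32 of 208 pairs (15.4%), and the gap to the cone genes was 12.5 points. The shared genes lay at 61 of 364 pairs (16.8%). The genes of a list share their cells, so these pairs are not independent and the gaps were not tested.

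**Figure D2:**
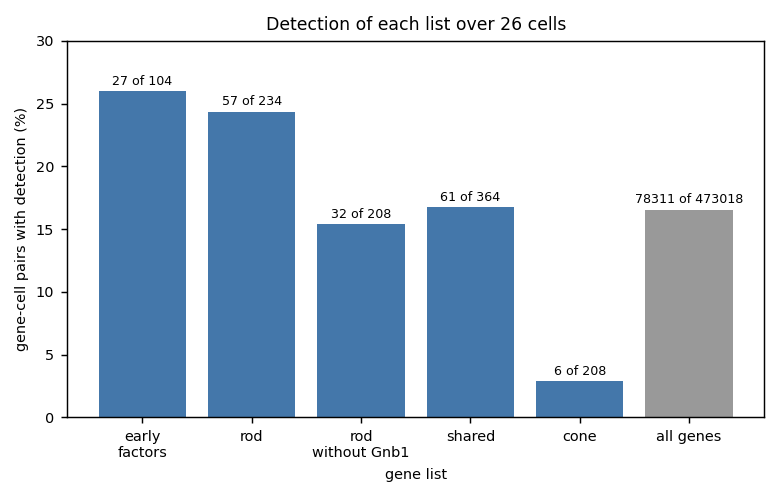
Percentage of gene-cell pairs with a signal of at least 1000 for each list over the 26 cells, with the number of pairs above each bar and all 18193 genes in grey. The rod bar falls from 24.4% to 15.4%, close to the 16.6% of all genes, when Gnb1 is left out, and the cone bar is at 2.88%.

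The paralogous rod and cone genes were set side by side, each counted by its own probe set. Sag was above the limit in 12 cells and Arr3 in 1, with none in common. Pde6g was above it in 7 cells while its cone counterpart Pde6h reached 537 at most. Pde6b was above it in 4 cells and Pde6c in none. Cngb1 was above it in 6 cells and Cngb3 in 2, and P5 cell C6 held both. Gnat1 was above it in 2 cells and Gnat2 in 1, with none in common, and neither Gngt1 nor Gngt2 was detected. Numbers of cells depend on how well each probe set works, so a pair compares detections and not levels.

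Per cell, the number of members detected ranged from 1 to 15 with a median of 4.5, or 2.5 when Gnb1, Unc119, Tulp1 and Thrb are left out. Thrb was below the limit in every cell, so leaving it out does not change the number. The E19 cell held 3 and each P4 cell held 2. The P5 cells with no culture stated held 1 to 14 (median 5), and the highest were B4 with 14 and B3 with 9. The cultured P5 pNdrg4 cells held 5, 3, 2, 4 and 3. The P5 pSynapsin cells held 9 in E1, 12 in E2, 5 in E3 and 4 in E4. At P8 the pNdrg4 cells A1 and A2 held 9 and 13, and the pSynapsin cells B4 and B3 held 15 and 5. The E19 and P4 cells lay below every P5 pSynapsin and P8 cell, and the cultured P5 pNdrg4 cells lay below the P8 pNdrg4 cells, while the P5 groups overlapped each other.

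The counts did not simply follow the number of genes detected. P5 cell B3 held 25.7% of the members and 11.3% of all genes, and P8 cell B4 held 42.9% of the members and 19.1% of all genes. P8 cell B3 held 14.3% of the members and 22.0% of all genes. Over 26 cells the number of rod and shared members without Gnb1 had a Pearson r of 0.41 and a Spearman rho of 0.34 with the number of all genes detected, given as a description because each pair of values comes from the same array.

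**Figure D3:**
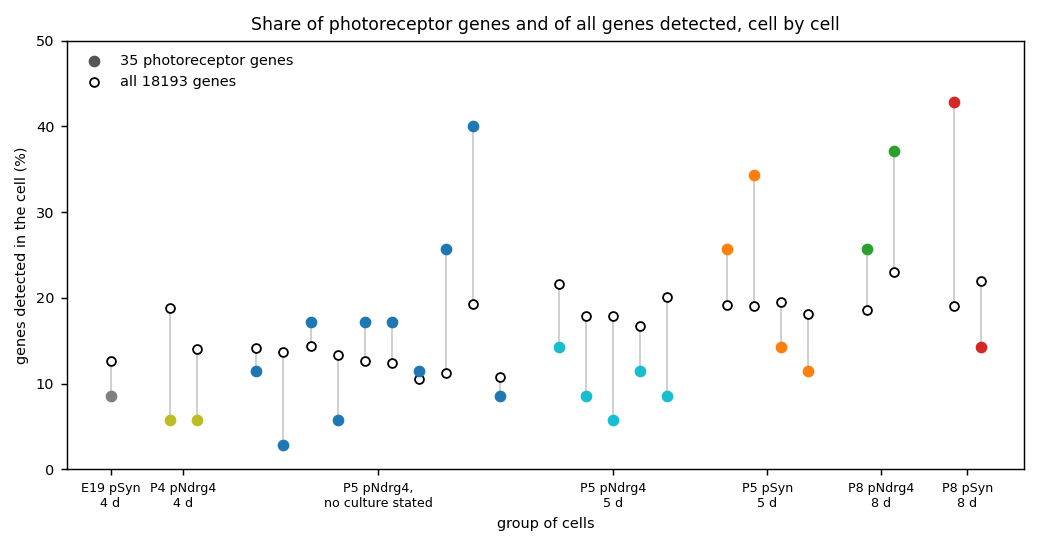
Percentage of the 35 measured members (filled) and of all 18193 genes (open) with a signal of at least 1000 in each cell, ordered by group. Filled points lie far above the open ones in P5 cells B3, B4 and E2 and in P8 cells A2 and B4. They lie below the open ones in the E19 and P4 cells, in all 5 cultured P5 pNdrg4 cells and in P8 cell B3. The same holds for P5 cells A1, A5, A7, A8, E3 and E4.

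Detections of different members fell largely in the same cells. Of the 45 pairs among the 10 members detected in 5 to 14 cells, 43 had a phi coefficient of detection above 0, with a median of 0.37. Over the 9333360 pairs of the 4321 genes detected in 5 to 14 cells, 55.6% of coefficients were above 0 and the median was 0.03. The exceptions were Unc119 with Rom1 (-0.31) and Unc119 with Tulp1 (-0.30). Without Unc119 all 36 pairs were above 0, with a median of 0.44 and a lowest value of 0.15 for Crx with Rom1. All cells and groups enter these values, the pairs share cells and age, and the coefficients were not tested.

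Among the factors and their partners, Crx and Nrl were both above the limit in 9 cells (phi 0.57). All 7 cells with Pde6g had Crx and all 7 had Nrl (phi 0.56 and 0.77). Of the 12 cells with Sag, 11 had Crx (phi 0.70), and the exception was P8 cell B3 with a Crx signal of 935. Crx accompanied Pdc in 10 of 11 cells (phi 0.64), and all 5 cells with Rcvrn had Sag. Rom1 and Tulp1 were both above the limit in 10 cells (phi 0.70), which include P5 cells A7 and E4, where no early factor was above it.

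**Figure D4:**
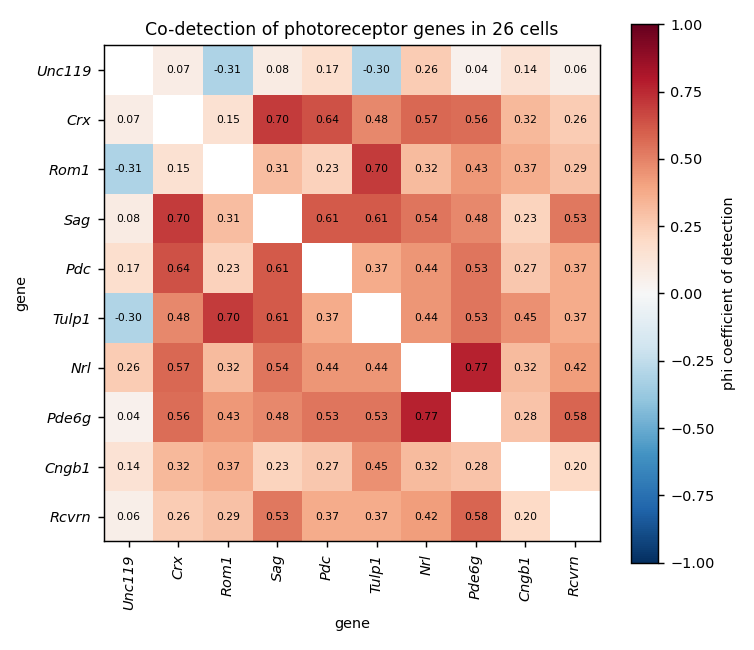
Phi coefficient of detection over 26 cells for each pair of the 10 members detected in 5 to 14 cells, on a scale from -1 to 1 with the value in each square. The warmest squares join Nrl with Pde6g (0.77), Crx with Sag (0.70) and Rom1 with Tulp1 (0.70), and the blue ones lie in the Unc119 row.

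Other photoreceptor genes outside the set were counted in the same way. Of 32 such genes 28 were measured, 17 were above the limit in at least 1 cell and 9 in at least 5. These 9 were Samd11 and Rorb in 14 cells each, Rbp3 in 12, Neurod1 in 11, Gnb5 in 9, Gnb3 in 8, Cdhr1 in 7, and Prom1 and Pde6d in 6 each. Rorb, Neurod1 and Gnb5 are also used by other retinal neurons. The phototransduction regulator Rgs9, the calcium exchanger Slc24a1 and the synaptic proteins Cacna1f and Cabp4 were below the limit in every cell. The number of these genes per cell had an r of 0.90 with the number of rod and shared members without Gnb1 over the 26 cells. Among 6664 non-members above the limit in at least 4 cells, the 8 whose log2 signals followed that number most closely were Cdhr1 (r 0.79), Rpa2 (0.75), Prom1 (0.72), Dnmbp (0.71), Nhp2 (0.71), Rgs7 (0.70), Dgke (0.69) and Lars2 (0.69). Cdhr1 and Prom1 encode membrane proteins at the base of the outer segment. The median r of the 6664 genes was 0.05, and 38 of them were at 0.6 or above.

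Markers of other retinal cells were counted beside the members, and their part in the results was not tested. Bipolar markers were above the limit in 14 of 260 pairs (5.38%). Of 10 measured, 5 were above it in at least 1 cell, with Prkca in 6 cells, and the defining genes Vsx1, Trpm1, Gng13, Nyx and Bhlhe23 were below it in every cell. Müller glia markers were above the limit in 59 of 260 pairs (22.7%), with 7 of 10 above it somewhere. Glul was above it in 18 cells, Dkk3 in 16, Vim in 11, Clu in 7 and Rlbp1 in 5, and Apoe, Aqp4 and Kcnj10 were below it in every cell. The highest signals were 36153 for Vim in P5 cell B3, 11844 for Rlbp1 in P5 cell B4 and 20598 for Clu in P8 cell B4. For Glul and Dkk3 they were 12317 in P5 cell A6 and 28061 in P5 cell B2. All 5 markers of the pigment epithelium were below the limit in every cell. Ganglion cell markers were above it in 13 of 182 pairs, with Nefl in 5 cells. Horizontal cell markers were above it in 24 of 130 pairs, of which Tfap2b, also on the amacrine list, gave 20. The rod and shared count without Gnb1 had an r of 0.52 with the Müller glia count, 0.43 with the ganglion cell count and 0.38 with the bipolar count. It was -0.22 with the horizontal cell count and -0.25 with the amacrine count, and through Tfap2b these 2 values are not separate.

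The 4 cells richest in members also held amacrine markers. P5 cell B4, with 14 members, read 16603 for Pax6. It held 4 of the 7 amacrine markers, 5 Müller glia markers and 2 bipolar markers. Tfap2a (9.08), Tfap2b (14.8) and Gad1 (1.72) were below the limit in that cell. Its amacrine markers summed to 24110, the lowest in its group, where they reached 151268. P8 cell B4, with 15 members, read 11016 for Pax6 and 15332 for the glycine transporter gene Slc6a9 and held 5 amacrine markers, 3 Müller glia markers and no bipolar marker. P8 cell A2, with 13 members, held 4 amacrine, 4 Müller glia and 1 bipolar marker. P5 cell E2, with 12 members, held 5 amacrine, 4 Müller glia and 3 bipolar markers, the most bipolar markers of any cell. It read 16141 for Pcp2 and 9568 for Cabp5. Gad1 was below the limit in each of these cells. These cells were singled out after their values were seen.

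The first contrast the design allows is between P5 pNdrg4 cells cultured for 5 days and those with no culture stated. For this and the next contrasts, signals were raised to 200, log2 transformed and averaged over the cells of a group, and the 19 members detected in at least 2 cells were set beside the 8570 genes that met the same condition. Members were lower in the cultured cells: the median difference was -0.78, against 0.31 over all genes. None of the 19 was higher by at least 1 log2 unit, against 26.5% of all genes, and 8 were lower by at least 1, against 9.05% of all genes. The 8 were Otx2 (-1.77), Crx (-1.13), Nrl (-1.02), Pdc (-2.76), Rom1 (-1.80), Pde6g (-1.78), Sag (-1.08) and Tulp1 (-1.02). Cngb3 was the only member above 0, at 0.66. Otx2 and Opn1sw (-0.94) met the condition of 2 cells only through cells with no culture stated. Both were at the floor in every cultured cell, as were Gnat1, Pde6b, Rcvrn, Rp1 and Aipl1. The differences of these genes could not lie above 0 and do not bear on the direction. Pdc, Pde6g and Abca4, with cultured means of 7.66, 7.67 and 7.77, lay too near the floor to be higher by 1.

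The mean number of members per cell differed by -2.1 (3.4 in cultured cells, SD 1.14, and 5.5, SD 3.78, in the others), while the mean number of all genes detected was higher by 1016. The difference in members lies within the spread over cells. Without P5 cell B4 it was -1.16 and the median over members was -0.49, and when groups were summarised by their medians the median over members was 0. No cultured cell was above the limit for Pdc, Otx2 or Pde6g, and the low cells of both groups overlapped for each of them. The other photoreceptor genes did not share the members' lower values here: 12 of them entered, with a median difference of 0, 2 higher and 1 lower by at least 1. The median difference was -0.84 for the Müller glia markers and 0.86 for the amacrine markers. Summed signals of the other photoreceptor markers ran from 2336 to 68660 in the cells with no culture stated and from 8536 to 12694 in the cultured cells. Those of the Müller glia markers ran from 5676 to 60655 and from 688 to 22319, and those of the bipolar markers from 690 to 36078 and from 330 to 6554.

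The next contrast is between the reporters at P5, with both groups cultured for 5 days. Members were higher in pSynapsin cells: the median difference was 1.50, against 0 over all genes. Of the 19 members 11 were higher by at least 1, against 20.7% of all genes. None was lower by at least 1, against 18% of all genes. Aipl1 (1.50), among the 11, met the condition of 2 cells only through pSynapsin cells. Otx2, Gnat1, Pde6b, Rcvrn, Rp1, Aipl1 and Opn1sw were at the floor in every cultured pNdrg4 cell. Their differences could not lie below 0 and do not bear on the direction. Pdc, Pde6g and Abca4, with pNdrg4 means of 7.66, 7.67 and 7.77, lay too near the floor to be lower by 1. Rod, shared and early genes had medians of 1.50, 1.69 and 1.71, and the 2 cone genes had a median of -0.33. The widest differences were Sag at 3.36, Rom1 at 2.62, Pdc at 2.44, Nrl at 2.34, Tulp1 at 2.17, Cngb1 at 2.01, Rcvrn and Pde6g at 1.88 each and Crx at 1.71.

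The pSynapsin cells held 7.5 members on average (SD 3.70) and the pNdrg4 cells 3.4 (SD 1.14), a difference of 4.1, while the numbers of all genes detected differed by 18.5. The counts overlapped, with 4 to 12 members in pSynapsin cells and 2 to 5 in pNdrg4 cells. Cell E2 carried a large part of the gap: without it the difference in members per cell was 2.6 and the median over members 0.77. Cells E1 and E2 had Pdc, Sag, Tulp1, Rom1, Crx, Nrl and Cngb1 above the limit, and E4 had no early factor above it. The other photoreceptor markers summed to between 7744 and 50207 in the pSynapsin cells, against 8536 to 12694 in the pNdrg4 cells. Müller glia markers summed to between 5285 and 19945 against 688 to 22319, and bipolar markers to between 352 and 26923 against 330 to 6554. In this contrast the median difference was 0.72 for 12 other photoreceptor genes, 0.66 for the Müller glia markers and -1.27 for the amacrine markers.

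At P8, with 2 cells per reporter, the same contrast gave no common direction. The median difference over the 19 members was 0, 5 were higher by at least 1 in pSynapsin cells, against 25.1% of all genes, and 4 were lower by at least 1, against 24.7% of all genes. The pSynapsin cells B4 and B3 held 15 and 5 members, so they lay on either side of the pNdrg4 cells with 9 and 13. Unc119 was higher by 3.87, Cngb1 by 3.15, Rp1 by 2.06, Pdc by 1.53 and Aipl1 by 1.15. Rom1 differed by -1.54, Pde6g by -1.40, Rcvrn by -1.32 and Sag by -1.09. Leaving out pSynapsin cell B3 gave a median of 1.80 and leaving out B4 gave -0.47, so each cell sets the sign.

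The last contrast is between P8 cells cultured for 8 days and P5 cells cultured for 5 days, taken within each reporter and averaged. Age and days in culture cannot be told apart. Members were higher at P8 in this average: the median difference was 1.39, against 0.05 over all genes. Of the 19 members 11 were higher by at least 1, against 18.5% of all genes, and none was lower by at least 1, against 12.7% of all genes. The 6 rod genes had a median of 2.42 and the 8 shared genes 1.60, while the 3 early factors had 0.48 and the 2 cone genes -0.16. By role, 4 of 6 rod genes, 6 of 8 shared genes, 1 of 3 early factors and no cone gene were higher by at least 1. In pSynapsin cells alone Crx, Nrl, Rom1, Aipl1 and Tulp1 lay below 0, between -0.35 and -0.03. Otx2, Opn1sw and Cngb3 lay at 0 there and the other members above it. In pNdrg4 cells alone Cngb1, Unc119 and Cngb3 lay below 0.

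Rcvrn had the widest difference, 3.68, with 5.28 in pNdrg4 cells and 2.08 in pSynapsin cells. Pde6g followed at 2.94 (4.58 and 1.30), Pdc at 2.56 (3.02 and 2.10), Sag at 2.56 (4.78 and 0.33), Gnat1 at 2.50 (2.21 and 2.80) and Pde6b at 2.33 (3.37 and 1.28). For these 6 genes, named for their wide average, both reporters gave a value above 0, as they did for Abca4 (1.73 and 1.75) and Gnb1 (0.65 and 0.09). Rcvrn, Gnat1 and Pde6b were at the floor in every cultured P5 pNdrg4 cell, so their pNdrg4 values could not lie below 0. Pdc, Pde6g and Abca4 averaged 7.66, 7.67 and 7.77 there, so theirs could hardly do so. Gnat1 was at the floor in the P5 pSynapsin cells too and met the condition of detection only through P8 cells. It is counted among the 11 genes higher by at least 1 and in the rod median, but does not bear on the direction. Rp1 (1.03) was likewise at the floor in both cultured P5 groups. Rom1 differed by 1.99 on average, but by 4.07 in pNdrg4 cells and -0.09 in pSynapsin cells, and Nrl by 1.39, from 2.82 and -0.04. Crx differed by 0.48 (1.04 and -0.09), Gnb1 by 0.37 (-0.30 with the median over its probe sets), and Otx2 was at the floor in all of these cells. Whether the reporters differ in this respect was not tested.

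The mean number of members per cell was higher at P8 by 5.05, with 11 against 3.4 in pNdrg4 cells and 10 against 7.5 in pSynapsin cells, and that of all genes by 321.5. The pNdrg4 cells did not overlap, with 9 and 13 members at P8 and 2 to 5 at P5, and the pSynapsin cells did, with 5 and 15 against 4 to 12. Both P8 pSynapsin cells moved the size: without B4 the median over members was 0.14 and the difference in members per cell 2.55, and without B3 they were 2.90 and 7.55. Rcvrn kept a difference of at least 3.37 whichever cell was left out. At P8 the other photoreceptor markers summed to between 29690 and 36100 in pNdrg4 cells and between 7580 and 66710 in pSynapsin cells. Over the age contrast the median difference was 1.19 for 12 other photoreceptor genes, 0.88 for the Müller glia markers and -0.49 for the amacrine markers. At P8 Müller glia markers summed to between 11026 and 14089 and between 2873 and 29490, and bipolar markers to between 517 and 4619 and between 1249 and 4281. The culture, reporter and age contrasts share the cultured P5 pNdrg4 cells, and the reporter and age contrasts share the P5 pSynapsin cells too, so their values are not independent of each other.

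**Figure D5:**
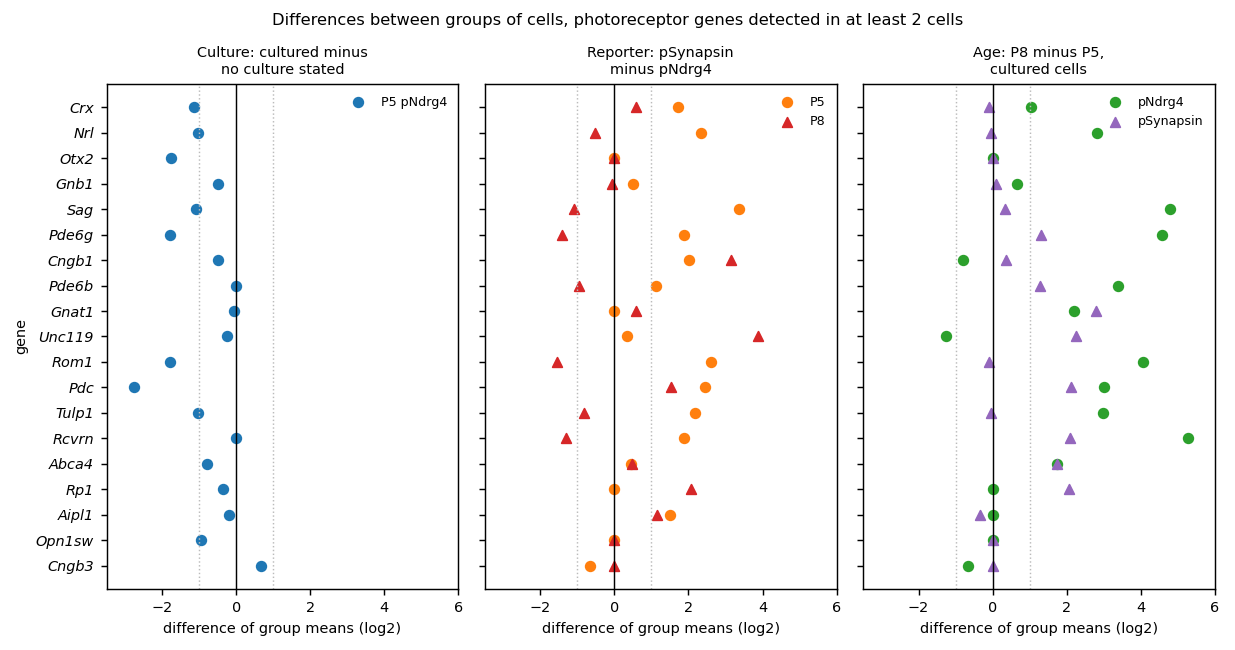
Difference of group means of log2 signals for the 19 members detected in at least 2 cells (rows), with dotted lines at -1 and 1: cultured minus no culture stated (left), pSynapsin minus pNdrg4 at P5 and P8 (middle), and P8 minus P5 within each reporter (right). The left panel leans to negative values. Of the P5 points of the middle panel 14 lie above 0, 1 below and 4 at 0. Most points of the right panel lie above 0, and the P8 triangles of the middle panel fall on both sides.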

How the data were processed

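Expression was measured in 26 hand-picked single cells, 1 array each. Per the labels' protocols cDNA was primed with oligo dT and amplified by 35 cycles of PCR, which can widen differences between cells. The authors deposited a linear intensity (the MAS5 signal, according to the submitters' processing notes) for every probe set. The MAS5 version was not given in the sources used here. With 2% trimmed from either end, the mean of every array is 500, and no further scaling was applied.

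Of 45101 probe sets, 34945 belong to 1 gene, 932 to several, 9211 to none and 64 are controls (some of these also lack a gene). The brightest probe set by mean log2 signal stood for its gene. Probe sets were named through the platform annotation and matched by Entrez identifier for 34741 of them. Signals were raised to a floor of 200 before log2, so differences against cells at the floor are understated. A gene was detected at 1000 and entered group differences when detected in at least 2 cells. A difference of at least 1 log2 unit was counted.

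The labels name no animal or culture, so no p-values were computed. The members, lists and comparisons were chosen with earlier results of these data known. By rule, members detected in at least 5 cells are given in full and the others by their cells, and the non-members named are pathway and marker genes detected in at least 5 cells, defining markers not detected, and the 8 that follow the rod and shared count most closely. Computing used Python 3.11.15 with pandas 2.3.3, numpy 2.4.6, matplotlib 3.10.9 and scipy 1.17.1. The code was tested on simulated data. Promoter windows came from RefSeq (GRCm38.p6).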

Additional observations from a re-analysis of the deposited data

Results flagged for a closer look

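In groups of 4 to 10 cells, 48 combinations of group and measure were checked for a cell far from the others, and 13 stood out. The criterion marks about 1 in 20 groups by chance when values are normally distributed, and its rate for signals that are low or high from cell to cell, as here, was not tested. Among the P5 cells with no culture stated, B4 held 4 rod genes and 6 shared genes, above the other cells. In the same group B3 had the lowest Gnb1 signal, 912.51, and the highest Tulp1 signal, 31995. Among the cultured P5 pNdrg4 cells, C6 held 1 cone gene where the others held none, and read 3122 for Cngb1. Cell C1 of that group read 5523 for Nrl and 213 for Pdc, D3 read 3235 for Rom1, and D6 read 3383 for Tulp1 and 220 for Pde6g. The values of 213 and 220 are below the limit of detection and differ from the others only in being above the floor. Among the P5 pSynapsin cells, E4 held 0 early factors and read 64.7 for Sag, below the other 3 cells.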

How the results depend on the processing

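Results were recomputed with detection at 500 and 2000, floors of 50 and 500, each cell's highest or median probe set, quantile normalization, scaling to the 75th percentile and group medians, and without each compared cell in turn. Leaving out Gnb1, Unc119, Tulp1 and Thrb lowered the median number of members per cell from 4.5 to 2.5. Medians over members without Gnb1, Unc119 and Tulp1, an alternative added after seeing the data, were -0.86 for culture, 1.61 and 0 for the reporters at P5 and P8, and 1.56 for age. A value counted as the same when it stayed within the spread over cells of the main value. Numbers of members detected and of cells per gene were instead held to a set ratio to the main number. With all cells kept, 82 values that answer a comparison counted as the same and 4 changed sign. A value could fall to 0 and still count as the same, as the culture median did with group medians. Of the values of single genes 578 counted as the same and 20 moved. The sign changed in 12 of their differences, none of which was 1 log2 unit or more to begin with, among them Gnb1 for culture (0.32 with the median probe set, 0.05 with quantile normalization) and Unc119 for culture (0.73 with group medians). With detection at 2000, Crx was found in 9 cells and Tulp1 in 6, and with the median probe set Gnb1 was found in 16. The 4 comparison values that changed sign are all the difference in members per cell between reporters at P8, which was -1 and became 0.5 with detection at 500, and 1 with detection at 2000, with quantile normalization and with the 75th percentile. Leaving out each cell gave -6 to 4 for that difference, and -0.47 to 1.80 for the median over members at P8. For culture the ranges were -0.89 to -0.49 for the median and -2.6 to -1.16 for members per cell. For the reporters at P5 they were 0.77 to 1.66 and 2.6 to 5.27, and for age 0.14 to 2.90 and 2.55 to 7.55. Without P8 cell A2 the difference between reporters at P8 was 1 member per cell. Leaving out cells turned the sign of some genes between reporters at P8: the ranges were -2.29 to 0.11 for Sag (positive without B3), -4.60 to 1.80 for Pde6g (positive without B3), -4.87 to 1.79 for Rom1 (positive without B3) and -0.58 to 3.63 for Pdc (negative without A1, and -0.03 without B4). For age the ranges were -0.24 to 3.02 for Nrl and -0.0064 to 2.94 for Tulp1, both negative without P8 cell B4. No paired analysis was possible because the labels give no number that ties cells of different groups together. Signals below about 200 carry no order, and groups of 2 cells limit both contrasts at P8.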
